A study of Mus musculus with 18 samples.

Results

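Cells switch on interferon-stimulated genes when interferon reaches them. A set of 43 of these genes was followed here through the basal state and the TNF response of 3 mouse fibroblast lines. The 43 members were picked by gene symbol from a count table of 55536 genes, and each symbol was found once. Of these, 36 passed the filter on low counts and were tested, among 16322 genes tested in all. The other 7 (Zbp1, Oas2, Oas3, Mx1, Mx2, Cmpk2 and Ifit3b) had too few reads in every group.

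Type I and type II interferons bind receptors on the cell surface, and Janus kinases then phosphorylate STAT proteins. STAT-containing complexes bind the interferon-stimulated response element (ISRE) or the GAS element, and the genes behind these elements encode proteins that sense, block or degrade viral RNA and proteins. TNF acts mainly through another route, in which the kinase IKK2 (also called IKKβ) releases NF-κB dimers such as those with p65, and fibroblasts are a cell type in which both routes have long been studied.

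RNA was sequenced from immortalised mouse embryonic fibroblasts (MEFs) of 3 genotypes: p65 KO (Rela, which encodes an NF-κB subunit, knocked out), IKK2 KO (the kinase gene Ikbkb knocked out) and wild type (WT). Each line was untreated or given TNFα at 10 ng/ml for 45 or 90 min, which makes 9 groups with 2 libraries each, and all 18 libraries came from immortalised cells. The labels name no second line of any genotype and do not say whether the 2 libraries of a group came from separate cultures. A difference between genotypes is therefore a difference between lines, and p-values reflect just the scatter of the libraries at hand, which may be technical.

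The libraries held 16708346 to 23469439 assigned counts. Levels are counts-per-million values (CPM) over the effective library size, so that members under 1 CPM rest on few counts. Rela was at 5.25 to 6.55 CPM in the 6 p65 KO libraries, against 63.2 to 111 CPM in the 12 others. Ikbkb was at 42.7 and 42.7 CPM in untreated p65 KO cells, 43.1 and 43.7 CPM in untreated IKK2 KO cells and 60.4 and 59.3 CPM in untreated WT cells, so the count over the whole gene does not check the IKK2 KO label. Summed over 8 fibroblast markers the level was 4550 to 4700 CPM in p65 KO cells, 10700 to 11100 CPM in IKK2 KO and 10800 to 11100 CPM in WT. The macrophage markers, 6 genes from another cell type rich in interferon responses, summed to 1.41 to 1.87 CPM in p65 KO cells, 1.18 to 1.89 CPM in IKK2 KO and 1.44 to 2.23 CPM in WT, with Adgre1 at 0 throughout. Epithelial markers reached 3.23 CPM in IKK2 KO, through Krt8. The part of these marker levels in the results was not tested. In RNA from a whole dish, fewer cells that express a gene and less RNA per cell cannot be told apart.

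Promoter windows in RefSeq on GRCm38.p6, 250 bases before to 50 after each start, were matched for 33 members. The ISRE core, written as GAAA, any 2 bases and GAAA again, was found on either strand in 20 of these 33 genes (60.6%), against 3.99% of the 27025 genes with a window. The GAS core TTCNNNGAA was found in 10 (30.3%), against 9.55%, and the NF-κB (kappaB) consensus in 7 (21.2%), against 9.55%. Of 14 members that rose in WT cells at 90 min of TNF 12 have a window, of which 8 hold an ISRE core and 2, Gbp2 and Ifitm3, a kappaB match. Among the 21 other members with a window 12 hold an ISRE core and 5 a kappaB match. Windows are printed for 6 members. They are 4 that rose in WT and hold an ISRE core, Ifit2, which fell, and Slfn2, which rose most and holds none of the 3 motifs. The rise of Ifit1, among the 4, was lost in some alternative fits. Capitals mark every motif match.
Gbp2, chr3:142620413-142620712, strand plus: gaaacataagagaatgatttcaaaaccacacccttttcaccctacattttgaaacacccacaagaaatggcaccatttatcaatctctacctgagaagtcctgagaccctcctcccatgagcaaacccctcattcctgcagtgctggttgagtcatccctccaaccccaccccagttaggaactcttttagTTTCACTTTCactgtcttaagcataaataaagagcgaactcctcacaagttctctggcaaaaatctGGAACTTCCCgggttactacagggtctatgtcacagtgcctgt
Trim21, chr7:102565433-102565732, strand minus: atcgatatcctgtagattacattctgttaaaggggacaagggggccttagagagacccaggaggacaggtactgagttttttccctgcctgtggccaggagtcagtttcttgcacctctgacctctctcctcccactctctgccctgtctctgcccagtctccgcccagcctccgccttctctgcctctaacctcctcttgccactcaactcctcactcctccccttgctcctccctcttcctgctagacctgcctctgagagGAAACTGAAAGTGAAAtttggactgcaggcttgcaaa
Irgm1, chr11:48871371-48871670, strand minus: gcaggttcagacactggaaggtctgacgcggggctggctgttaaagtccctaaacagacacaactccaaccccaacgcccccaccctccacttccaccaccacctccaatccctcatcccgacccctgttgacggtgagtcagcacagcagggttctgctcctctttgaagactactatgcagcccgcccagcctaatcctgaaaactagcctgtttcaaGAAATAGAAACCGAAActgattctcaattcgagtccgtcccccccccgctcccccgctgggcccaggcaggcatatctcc
Ifit1, chr19:34640639-34640938, strand plus: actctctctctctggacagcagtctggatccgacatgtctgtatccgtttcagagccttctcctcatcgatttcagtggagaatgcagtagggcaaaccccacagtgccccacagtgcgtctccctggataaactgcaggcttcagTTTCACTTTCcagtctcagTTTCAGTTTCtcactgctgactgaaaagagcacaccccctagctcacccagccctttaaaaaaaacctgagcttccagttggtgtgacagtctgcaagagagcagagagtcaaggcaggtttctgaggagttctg
Ifit2, chr19:34550444-34550743, strand plus: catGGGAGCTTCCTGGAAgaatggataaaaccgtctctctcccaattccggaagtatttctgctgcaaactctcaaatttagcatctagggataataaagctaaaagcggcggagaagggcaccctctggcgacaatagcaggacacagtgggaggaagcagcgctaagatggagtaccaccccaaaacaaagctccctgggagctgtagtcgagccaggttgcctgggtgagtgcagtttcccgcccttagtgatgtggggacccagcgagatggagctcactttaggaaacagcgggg
Slfn2, chr11:83064862-83065161, strand plus: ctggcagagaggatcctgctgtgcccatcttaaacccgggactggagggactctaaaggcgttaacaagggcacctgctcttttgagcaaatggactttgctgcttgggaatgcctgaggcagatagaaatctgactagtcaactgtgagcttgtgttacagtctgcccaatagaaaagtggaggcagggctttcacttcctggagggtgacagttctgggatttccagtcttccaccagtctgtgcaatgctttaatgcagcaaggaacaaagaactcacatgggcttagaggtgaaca
The Gbp2 window holds an ISRE core first and then a kappaB match at position 8 after the annotated start. Trim21 and Irgm1 each hold 2 overlapping ISRE cores and Ifit1 holds 2 separate ones. In the Ifit2 window shown the kappaB and GAS matches overlap, and a second Ifit2 window, at chr19:34550838-34551137, holds none of the 3 motifs. A match is a description of letters, and binding was not measured.

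The baseline of the interferon-stimulated genes differed widely between the lines, as did that of most genes tested, and in different ways for members of the same family. In untreated p65 KO cells 6 members were higher and 21 lower than in untreated WT cells (edgeR quasi-likelihood test with Benjamini-Hochberg adjustment), which is 75% of the 36 tested, beside 80.8% of all genes. By direction, 16.7% were higher, beside 39.8% of all genes, and 58.3% were lower, beside 41.1%. The median log2 change of the members was -0.68, against -0.02 over all genes. Oas1a, Usp18, Slfn2 and Ifi44, counted as lower, had 0, 0, 0 and 2 counts in untreated p65 KO. They passed the low-count filter through WT libraries alone, so they could hardly be called higher here. Ifit3 and Rtp4, also counted as lower, would not have passed it without the WT libraries. The shares by direction and the median thus rest in part on the filter. In untreated IKK2 KO cells 13 were higher and 15 lower than in WT, or 77.8%, beside 74.3% of all genes, with a median of 0.00 against -0.03. By direction, 36.1% were higher, beside 35.9% of all genes, and 41.7% were lower, beside 38.4%. The members named above are among the lower here too. Rsad2, Ifitm1 and Oasl1, among the higher, passed the filter through IKK2 KO libraries alone. Between untreated IKK2 KO and p65 KO cells 15 were higher and 6 lower in IKK2 KO, or 58.3%, beside 72.4% of all genes, with a median of 0.56 against 0.00. The 41.7% that were higher in IKK2 KO stand beside 35.5% of all genes, and the 16.7% that were lower beside 36.9%. Oas1a, Usp18, Slfn2 and Ifi44 had 3 counts or fewer in both of these groups, so they could hardly be called. Rsad2, Ifitm1 and Oasl1 could hardly be called lower in IKK2 KO. These shares and this median thus rest in part on the filter too. Shares called in either direction were thus near or under the background in all 3 comparisons, which share their untreated groups.

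**Figure D1:**
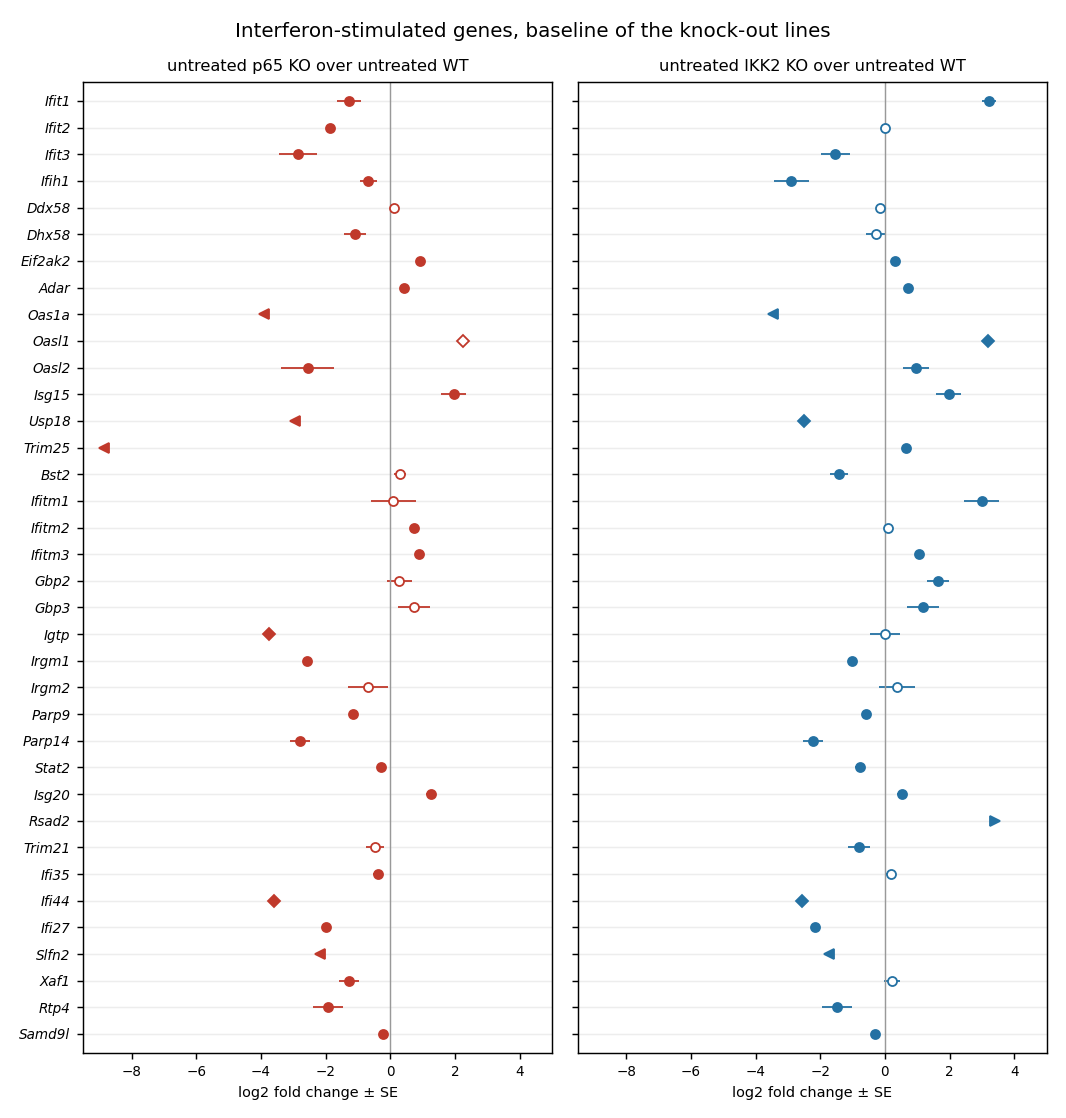
Log2 fold change of each of the 36 tested members in untreated p65 KO over untreated WT cells (left) and untreated IKK2 KO over untreated WT cells (right), with bars of 1 SE from the fit. Filled symbols passed an adjusted p of 0.05 and open ones did not; triangles are bounds where one group had 0 counts, diamonds are ratios of counts where one group had 1 to 3 counts, and members with 3 counts or fewer in both groups are not drawn. Ifit1, Ifitm1 and Rsad2 stand to the right in IKK2 KO only, and Trim25 is farthest to the left in p65 KO.

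The IFIT proteins bind viral RNA and hold back its translation. Ifit1 (ENSMUSG00000034459, GRCm38 chromosome 19, 34640871 to 34650009) had 0.582 and 0.502 CPM in untreated p65 KO cells, 11.7 and 13.1 CPM in untreated IKK2 KO cells and 1.48 and 1.17 CPM in untreated WT cells. The 3 lines did not overlap, and Ifit1 was 9.23-fold higher in IKK2 KO than in WT (log2 change 3.21 ± 0.22 SE, adjusted p = 1.6e-20) and 2.44-fold lower in p65 KO than in WT (adjusted p = 0.00093). Ifit2, its neighbour, had 10.9 and 11 CPM in p65 KO cells, 40.7 and 39.1 CPM in IKK2 KO and 40.3 and 39.7 CPM in WT. That is 3.66-fold lower in p65 KO (-1.87 ± 0.07, adjusted p = 1.3e-27), while the 2 IKK2 KO libraries overlapped those of WT (-0.01 ± 0.05, adjusted p = 0.93). Ifit3 followed neither, with 0.166 and 0.137 CPM in p65 KO cells, 0.309 and 0.456 CPM in IKK2 KO and 1.15 and 1.12 CPM in WT, lower in both knock-out lines (-2.85 ± 0.58 and -1.54 ± 0.45). Its values were not whole in 13 of 18 libraries, as happens where a read is split between copies, and the near copy Ifit3b had 46.8 counts in all.

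Among the RNA sensors, Ddx58, which encodes RIG-I, had 7.48 and 8.35 CPM in p65 KO cells, 7.30 and 5.87 CPM in IKK2 KO and 7.59 and 6.85 CPM in WT, and neither comparison passed (adjusted p of 0.32 and 0.31). Ifih1, encoding MDA5, had 1.62 and 0.867 CPM in p65 KO cells, 0.186 and 0.342 CPM in IKK2 KO and 2.50 and 1.42 CPM in WT. It was 7.41-fold lower in IKK2 KO than in WT (-2.89 ± 0.55, adjusted p = 6.3e-08), whereas its p65 KO and WT libraries overlapped (-0.68 ± 0.26, adjusted p = 0.017, up to 0.67 in the alternatives). Dhx58, encoding the related LGP2, was 2.11-fold lower in p65 KO (adjusted p = 0.0027, up to 0.057 in the alternatives) and was not called in IKK2 KO (-0.26 ± 0.31, adjusted p = 0.46). The kinase gene Eif2ak2 (PKR, which halts translation on double-stranded RNA) and the RNA editor gene Adar were higher in both knock-out lines. Eif2ak2 had 52.6 and 53.4 CPM in p65 KO cells, 35.2 and 34.7 CPM in IKK2 KO and 26.8 and 29.5 CPM in WT (0.92 ± 0.05 and 0.32 ± 0.06). Adar had 45.8 and 46.2 CPM in p65 KO cells, 57.3 and 55.0 CPM in IKK2 KO and 33.6 and 34.8 CPM in WT (0.43 ± 0.06 and 0.71 ± 0.06).

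The oligoadenylate synthetases make the messenger that activates RNase L. Oas1a had 0 counts in the 4 untreated knock-out libraries and 0.985 and 0.964 CPM in untreated WT, at least 15.0-fold lower in p65 KO and at least 11-fold lower in IKK2 KO (bounds at 3 counts over the group). Over all 6 libraries of a line it had 1 count in p65 KO, 0 in IKK2 KO and 0.874 to 1.31 CPM in WT. Oasl2, an OAS-like gene, differed between the knock-out lines, with 0 and 0.183 CPM in p65 KO cells, 1.36 and 0.798 CPM in IKK2 KO and 0.534 and 0.558 CPM in WT. It was 11.5-fold higher in IKK2 KO than in p65 KO (3.53 ± 0.79, adjusted p = 7.2e-07). Its smaller difference between IKK2 KO and WT (0.96 ± 0.40, adjusted p = 0.024) reached 0.34 in the alternatives. Oasl1 had 14 counts in untreated IKK2 KO against 2 in untreated WT, a ratio per effective library size of 9.16 (95% counting interval 2.10 to 83.0). Its call was lost without 1 IKK2 KO library (adjusted p up to 0.12).

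**Figure D2:**
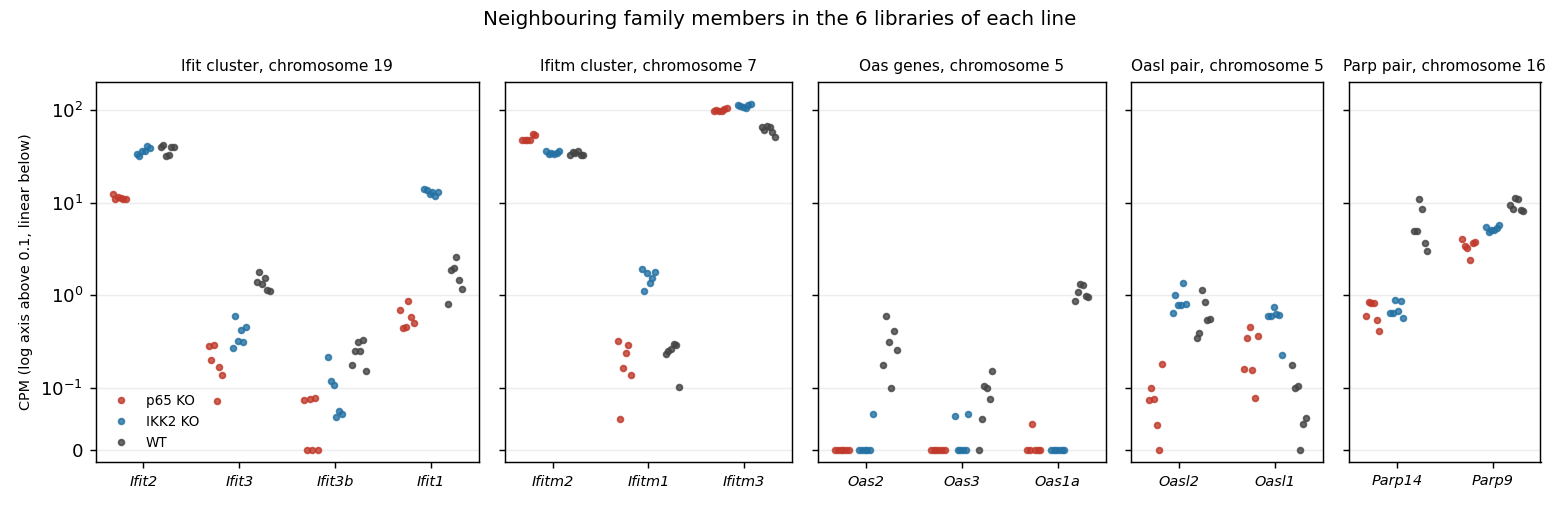
CPM of neighbouring family members in the 6 libraries of p65 KO, IKK2 KO and WT each, untreated and TNF-treated together, on an axis that is logarithmic above 0.1 CPM and linear below; points are single libraries spread sideways. Ifit1 and Ifitm1 are highest in IKK2 KO, Ifit2 is lowest in p65 KO, and Oas1a and Oas2 are at or near 0 in both knock-out lines.

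ISG15 is a ubiquitin-like protein, USP18 removes it from its targets, and TRIM25 is a ubiquitin ligase that acts on RIG-I. Isg15 had 1.45 and 1.6 CPM in p65 KO cells, 1.11 and 1.94 CPM in IKK2 KO and 0.287 and 0.507 CPM in WT, higher in both knock-out lines by 1.96 ± 0.38 and 1.98 ± 0.39 on the log2 scale. Usp18 moved the other way, with 0 counts in untreated p65 KO, 3 in IKK2 KO and 22 in WT. It was at least 7.65-fold lower in p65 KO, and the ratio of IKK2 KO to WT was 0.178 (95% counting interval 0.0342 to 0.594, adjusted p = 0.008, up to 0.069 in the alternatives).

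Trim25 (ENSMUSG00000000275, chromosome 11, 88999376 to 89020293) was close to absent in one line. It had 0 and 0 CPM in untreated p65 KO cells, 45.9 and 47.9 CPM in untreated IKK2 KO and 30.2 and 30.1 CPM in untreated WT. Over the 6 p65 KO libraries together 3 counts were assigned to it, against 1086 to 1330 counts in each WT group. In untreated cells it was at least 462-fold lower in p65 KO than in WT and 1.56-fold higher in IKK2 KO than in WT (0.64 ± 0.06, adjusted p = 1.8e-13). The genes around it in the genome were present in p65 KO. Scpep1 had 96.5 and 96.7 CPM in untreated p65 KO cells and 77.7 and 76.5 CPM in untreated WT, and Akap1 66.0 and 64.7 CPM in p65 KO cells and 56.6 and 53.1 CPM in WT. Coil and Dgke were likewise higher in p65 KO (0.39 ± 0.10 and 0.28 ± 0.07). Whether the Trim25 locus is intact in this line was not tested.

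The IFITM proteins sit in membranes and hinder virus entry, and BST2 tethers budding virus. Ifitm3, the most abundant member, had 103 and 105 CPM in p65 KO cells, 114 and 116 CPM in IKK2 KO and 58.7 and 51.8 CPM in WT, 1.87-fold and 2.07-fold higher in the knock-out lines. Ifitm2 had 55.3 and 53.7 CPM in p65 KO cells, 34.3 and 36.3 CPM in IKK2 KO and 32.8 and 32.8 CPM in WT, and was higher in p65 KO (0.73 ± 0.05, adjusted p = 2.1e-17). Reads of Ifitm2 and Ifitm3 were partly split, with values that were not whole in 15 of 18 libraries each. Ifitm1 had 0.291 and 0.137 CPM in p65 KO cells, 1.55 and 1.77 CPM in IKK2 KO and 0.287 and 0.101 CPM in WT, 7.93-fold higher in IKK2 KO (2.99 ± 0.55, adjusted p = 8.9e-08). Thus of 3 neighbours on chromosome 7, Ifitm1 was raised in IKK2 KO, Ifitm2 in p65 KO and Ifitm3 in both. Bst2 had 2.62 and 3.74 CPM in p65 KO cells, 0.805 and 1.08 CPM in IKK2 KO and 2.30 and 2.84 CPM in WT, 2.67-fold lower in IKK2 KO (-1.41 ± 0.28, adjusted p = 5e-06).

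Among the interferon-inducible GTPases, which act on the membranes around intracellular pathogens, Irgm1 was lower in both knock-out lines. It had 2.74 and 2.47 CPM in p65 KO cells, 7.86 and 7.47 CPM in IKK2 KO and 15.1 and 16 CPM in WT, 5.95-fold lower in p65 KO (-2.57 ± 0.14, adjusted p = 1.1e-22) and 2.03-fold lower in IKK2 KO (-1.02 ± 0.11, adjusted p = 9.1e-12). Gbp2 (chromosome 3, 142620602 to 142638008) was instead higher in IKK2 KO. It had 0.914 and 0.502 CPM in p65 KO cells, 1.80 and 1.94 CPM in IKK2 KO and 0.657 and 0.507 CPM in WT (IKK2 KO over WT 1.65 ± 0.34, adjusted p = 1.5e-05). Gbp3 differed in the same direction in IKK2 KO (1.18 ± 0.50, adjusted p = 0.027), a call that reached 0.22 in the alternatives. Igtp had 2 counts in untreated p65 KO against 26 in WT, a ratio of 0.0737 (95% counting interval 0.00848 to 0.295). Igtp and Irgm2 overlap on one strand in the annotation, so reads between them are uncertain.

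The ADP-ribosyltransferase genes Parp9 and Parp14, neighbours on chromosome 16, were both lower in the knock-out lines. Parp14 had 0.540 and 0.411 CPM in p65 KO cells, 0.867 and 0.570 CPM in IKK2 KO and 3.65 and 2.99 CPM in WT (-2.79 ± 0.32 and -2.23 ± 0.31). Parp9 had 3.70 and 3.79 CPM in p65 KO cells, 5.32 and 5.70 CPM in IKK2 KO and 8.41 and 8.06 CPM in WT (-1.14 ± 0.13 and -0.58 ± 0.13). Stat2, the signalling member, was also lower in both, with 4.44 and 4.66 CPM in p65 KO cells, 3.22 and 3.31 CPM in IKK2 KO and 5.79 and 5.22 CPM in WT. The p65 KO call of Stat2 was weak (-0.28 ± 0.13, adjusted p = 0.046, up to 0.30 in the alternatives).

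Of the other effectors, Ifi27 had 4.65 and 4.2 CPM in p65 KO cells, 3.78 and 4.11 CPM in IKK2 KO and 18.1 and 16.8 CPM in WT, 3.94-fold and 4.43-fold lower in the knock-out lines. Rtp4 had 0.208 and 0.411 CPM in p65 KO cells, 0.309 and 0.513 CPM in IKK2 KO and 0.985 and 1.42 CPM in WT (-1.93 ± 0.46 and -1.49 ± 0.46). Ifi44 and Slfn2 were lower in both knock-out lines too. The exonuclease gene Isg20 was higher in both, with 7.98 and 7.4 CPM in p65 KO cells, 4.89 and 4.5 CPM in IKK2 KO and 3.24 and 3.2 CPM in WT (1.26 ± 0.14 and 0.54 ± 0.16). Rsad2, encoding the antiviral enzyme viperin, had 24 counts in untreated IKK2 KO and 0 in untreated WT, at least 10.5-fold higher, and 1 count in untreated p65 KO. Xaf1 was lower in p65 KO alone of the 2 lines by its calls (-1.28 ± 0.30 against 0.22 ± 0.24 in IKK2 KO), and between IKK2 KO and p65 KO it differed by 1.51 ± 0.30 (adjusted p = 1.1e-05).

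Per kilobase of exon, the untreated level of the members ranged over several orders of magnitude. In p65 KO the highest were Ifitm3 at 153, Ifitm2 at 83.2 and Eif2ak2 at 10.4 CPM per kb. In IKK2 KO they were Ifitm3 at 170, Ifitm2 at 53.9 and Ifit2 at 10.2 CPM per kb. In WT they were Ifitm3 at 81.5, Ifitm2 at 50.1 and Ifi27 at 11.9 CPM per kb, and Ifit2 was next at 10.2. Ifit1 stood at 0.204 CPM per kb in p65 KO, 4.66 in IKK2 KO and 0.498 in WT. Mx1, encoding a classic GTPase against influenza virus, had no count in untreated WT and 0.0121 CPM per kb or less in the knock-out lines.

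In WT cells TNF raised part of the set within 90 min. At 45 min 5 members were higher than untreated and 0 lower (edgeR quasi-likelihood test), which is 13.9% beside 12.2% of all genes called, with 5.73% called higher and 6.45% lower. At 90 min 14 were higher and 1 lower. The 38.9% of members higher at 90 min compares with 5.81% of all genes, the 2.78% lower with 3.51%, and the 41.7% called in either direction with 9.32%. The members were chosen with earlier results of these data known, so these shares describe the set and do not test it. Slfn2, among the 14, passed the low-count filter through TNF-treated WT libraries alone. The median log2 change at 90 min was 0.39, against 0.00 over all genes, and 30 of 36 members had a positive value. Between 45 and 90 min 10 were higher and 1 lower at 90 min, or 30.6%, beside 14.3% of all genes (8.08% higher and 6.22% lower). The 45 min count was 3 without any 1 of 3 libraries (WT TNF 45 min a or b, or WT untreated b) and with DESeq2, and DESeq2 called 9 at 90 min. The count between the times was 7 without WT TNF 90 min library a.

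**Figure D3:**
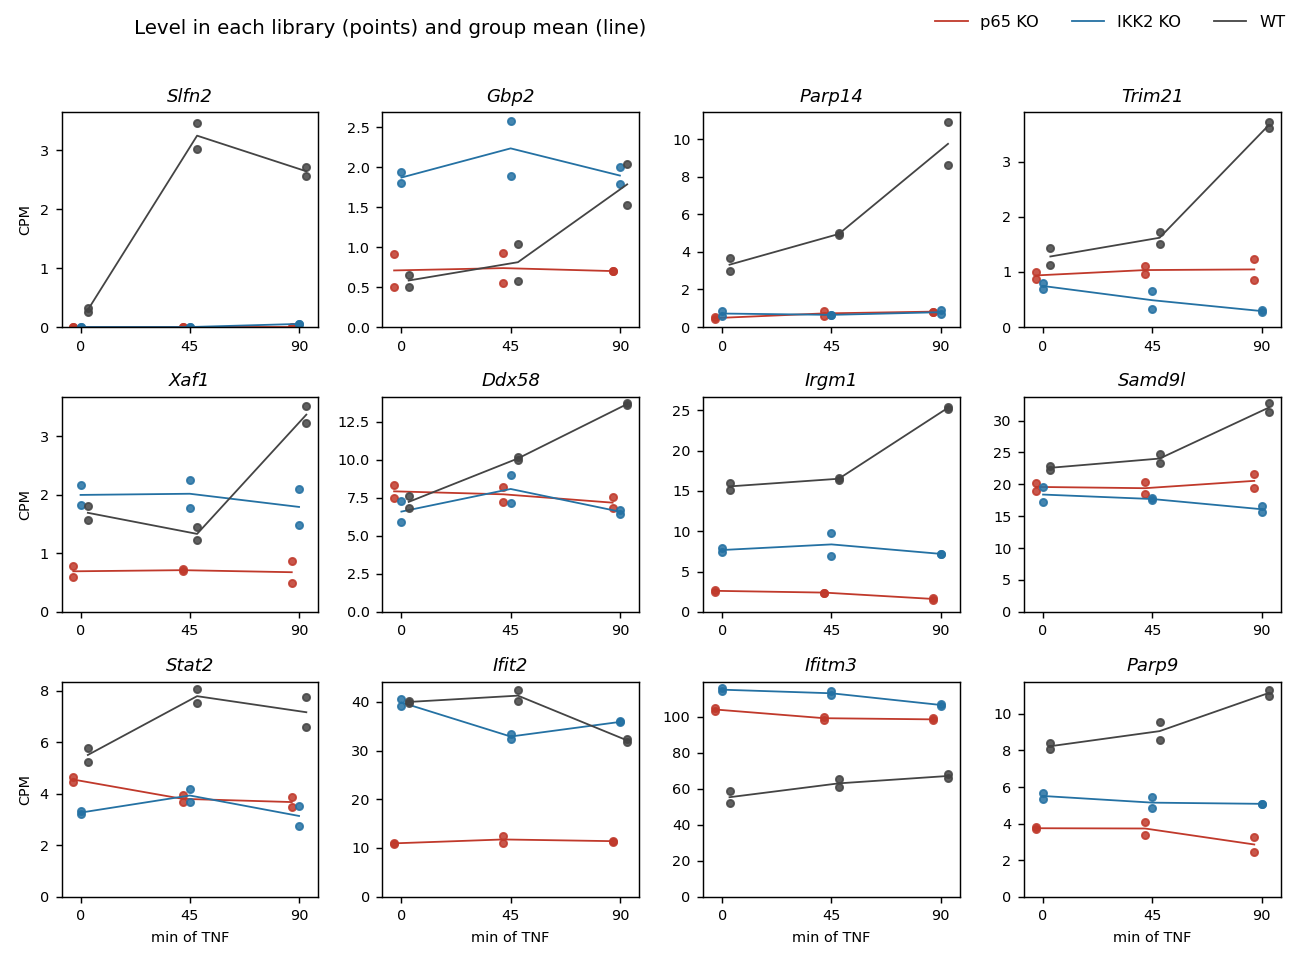
CPM of 12 members against minutes of TNF, with a point for each library, shifted sideways by line, and lines joining the group means, for p65 KO, IKK2 KO and WT. Each vertical axis is linear and starts at 0. In WT the 90 min points of Gbp2, Parp14, Trim21, Xaf1, Ddx58, Irgm1 and Samd9l lie above the untreated ones, and in the knock-out lines the 2 times overlap for most of these genes. The 90 min points lie above the untreated ones for Parp14 in p65 KO, and below them for Irgm1 in both knock-out lines and for Trim21 and Samd9l in IKK2 KO.

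Slfn2, a schlafen family member known for its part in T cell quiescence, changed most. It was among the 5 members called higher at 45 min, the first time sampled. In WT it had 0.328 and 0.254 CPM untreated, 3.03 and 3.47 CPM at 45 min and 2.72 and 2.57 CPM at 90 min. All treated WT libraries stood above the untreated ones, with log2 changes of 3.44 ± 0.41 at 45 min (adjusted p = 1.2e-11) and 3.14 ± 0.41 at 90 min (adjusted p = 6.1e-10). In p65 KO it had 0 counts in all 6 libraries. In IKK2 KO it had 0 counts in the untreated and 45 min libraries and 2 counts over the 90 min pair. Both knock-out lines were so at or under the floor of 3 counts per group at every time, and no fold change of their response is given.

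Trim21, Gbp2, Xaf1, Irgm1 and Samd9l were not called at 45 min in WT, and at 90 min they were higher than both untreated and at 45 min. Trim21, encoding a cytosolic antibody receptor and ubiquitin ligase, had 1.44 and 1.12 CPM in untreated WT, 1.51 and 1.73 CPM at 45 min and 3.72 and 3.61 CPM at 90 min. The 90 min libraries stood apart, with a change of 1.5 ± 0.21 from untreated (adjusted p = 2.3e-07) and of 1.16 ± 0.21 from 45 min (adjusted p = 2e-05). Gbp2 had 0.657 and 0.507 CPM untreated, 0.582 and 1.04 CPM at 45 min and 2.04 and 1.53 CPM at 90 min (1.58 ± 0.34 at 90 min, adjusted p = 0.00029). Its untreated and 45 min libraries overlapped. The rise of Gbp2 from 45 to 90 min (edgeR adjusted p = 0.0088) did not pass with DESeq2 (adjusted p = 0.082). Xaf1, an antagonist of inhibitors of apoptosis, had 1.81 and 1.57 CPM untreated, 1.22 and 1.44 CPM at 45 min and 3.51 and 3.22 CPM at 90 min. The rise at 90 min was 0.98 ± 0.20 (adjusted p = 0.00037), and Xaf1 values were not whole in all 18 libraries. Irgm1 had 15.1 and 16 CPM untreated, 16.6 and 16.4 CPM at 45 min and 25.2 and 25.4 CPM at 90 min (0.70 ± 0.08, adjusted p = 1.3e-09). Samd9l, encoding a restriction factor of poxviruses, had 22.9 and 22.3 CPM untreated, 24.7 and 23.4 CPM at 45 min and 31.3 and 32.8 CPM at 90 min (0.50 ± 0.06, adjusted p = 8.1e-08).

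Parp14 and Ddx58 climbed through both times in WT. Parp14 had 3.65 and 2.99 CPM untreated, 5.01 and 4.90 CPM at 45 min and 10.9 and 8.61 CPM at 90 min. Its change was 0.56 ± 0.16 at 45 min (adjusted p = 0.012, up to 0.25 in the alternatives) and 1.53 ± 0.14 at 90 min (adjusted p = 1.9e-12). Ddx58 had 7.59 and 6.85 CPM untreated, 10.2 and 9.95 CPM at 45 min and 13.7 and 13.6 CPM at 90 min. The 3 times did not overlap, with 0.47 ± 0.11 at 45 min (adjusted p = 0.0024) and 0.91 ± 0.11 at 90 min (adjusted p = 5.3e-09). Stat2 rose at 45 min, with 5.79 and 5.22 CPM untreated, 7.51 and 8.07 CPM at 45 min and 7.75 and 6.58 CPM at 90 min (0.50 ± 0.12, adjusted p = 0.0028, up to 0.10). Ifitm3 rose slightly, by 0.18 ± 0.05 at 45 min (adjusted p = 0.0057, lost in some alternatives) and 0.27 ± 0.05 at 90 min (adjusted p = 1.9e-05). It had 58.7 and 51.8 CPM untreated, 65.2 and 60.7 CPM at 45 min and 68.0 and 66.1 CPM at 90 min.

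At 90 min the other risers in WT were Gbp3 (1.65 ± 0.46), Ifit1 (0.77 ± 0.26), Ifi35 (0.50 ± 0.14) and Parp9 (0.43 ± 0.10). These calls, and that of Stat2 at 90 min, were each lost in at least 1 alternative (largest adjusted p of 0.15, 0.42, 0.22, 0.11 and 0.48), while 10 of the 15 calls at 90 min held in every alternative. Of these risers Ifi35 had 5.09 and 4.16 CPM untreated, 4.78 and 4.61 CPM at 45 min and 6.49 and 6.73 CPM at 90 min. Ifit2 was the faller, with 40.3 and 39.7 CPM untreated, 40.1 and 42.5 CPM at 45 min and 31.8 and 32.4 CPM at 90 min (-0.32 ± 0.05, adjusted p = 1.9e-05). Among members that are often used to read out interferon, Isg15 had 0.419 and 0.346 CPM at 90 min, against 0.287 and 0.507 CPM untreated (-0.02 ± 0.50, adjusted p = 1.0). Rsad2 had 5 counts at 90 min and 0 untreated, and Mx1 5 and 0. Eif2ak2, Adar and Trim25 had changes of 0.02 ± 0.06, 0.07 ± 0.06 and 0.00 ± 0.06.

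In neither knock-out line did any member rise after TNF by this test. In p65 KO 1 member was lower at 45 min, or 2.78%, beside 1.66% of all genes called (1.17% higher and 0.49% lower). At 90 min 2 were lower, or 5.56%, beside 6.48% of all genes (4.06% higher and 2.42% lower). In IKK2 KO 1 was lower at 45 min, or 2.78%, beside 8.76% of all genes (3.33% higher and 5.43% lower). At 90 min 0 were called, beside 4.48% of all genes (3.36% higher and 1.12% lower). For that count of 0 edgeR gave 6 members at an unadjusted p under 0.05, with a smallest adjusted p of 0.078, DESeq2 gave 0 calls, and a fit of only the libraries compared gave 1. The p65 KO count at 45 min was 0 without any 1 of its 4 libraries. At 90 min it was 0 without p65 KO TNF 90 min library b or p65 KO untreated library a, and 1 without either of the others.

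**Figure D4:**
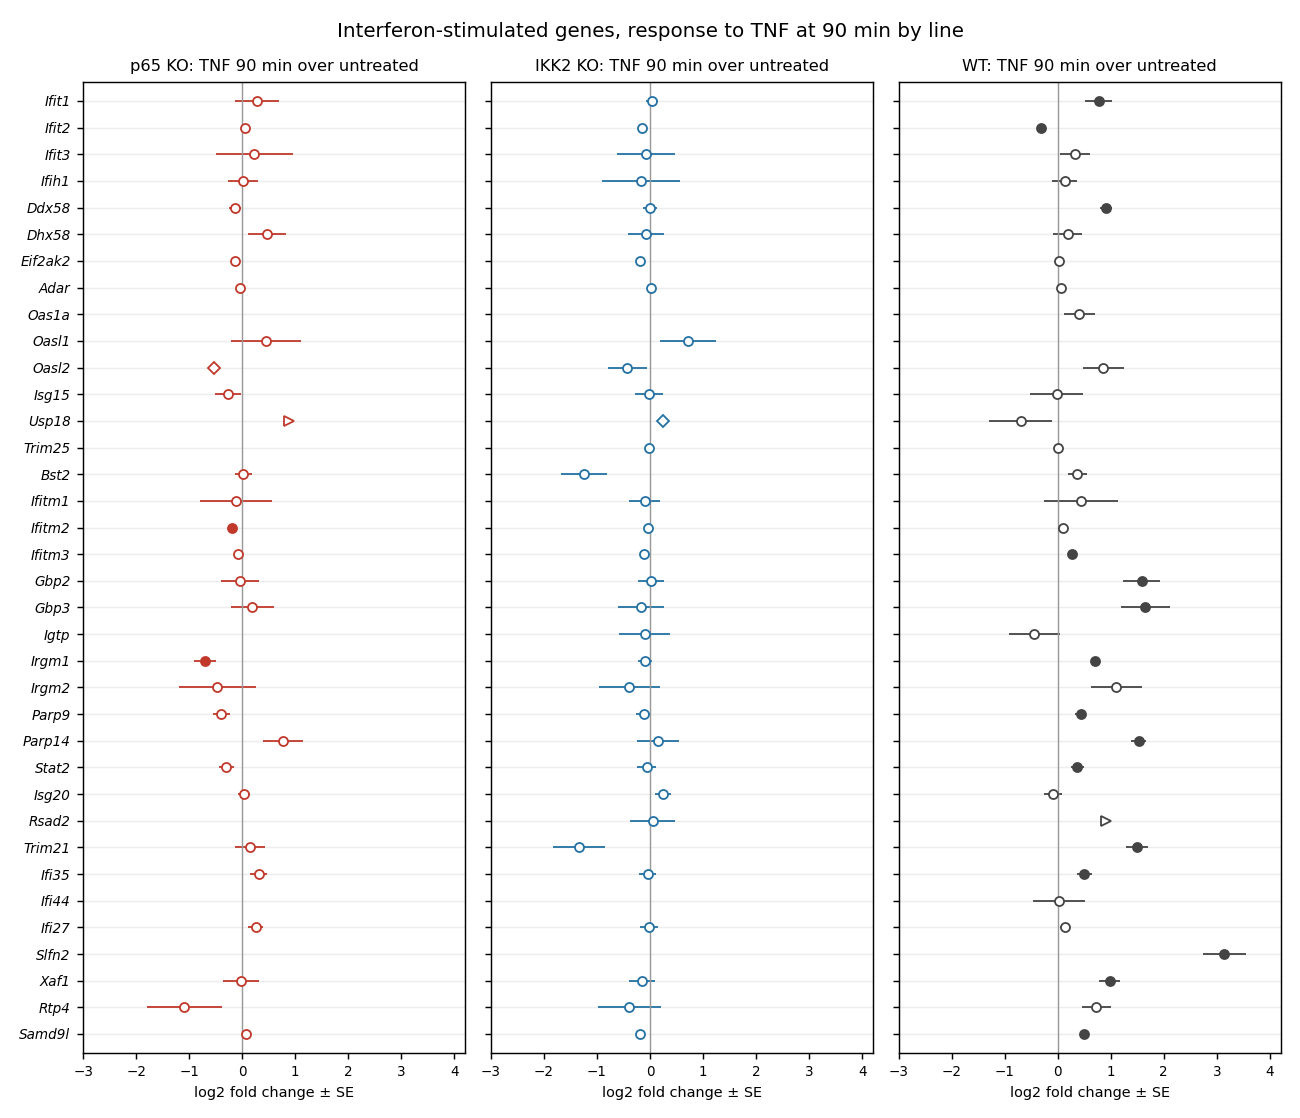
Log2 fold change at 90 min of TNF over untreated for each tested member in p65 KO (left), IKK2 KO (middle) and WT (right), with bars of 1 SE from the fit. Filled symbols passed an adjusted p of 0.05 and open ones did not; triangles are bounds where one group had 0 counts, diamonds are ratios of counts where one group had 1 to 3 counts, and members with 3 counts or fewer in both groups are not drawn. WT has 15 filled symbols, p65 KO 2 and IKK2 KO 0.

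Ifitm2 was the member that changed at both times in p65 KO, with 55.3 and 53.7 CPM untreated, 48.1 and 47.7 CPM at 45 min and 47.7 and 47.2 CPM at 90 min. The treated libraries were all lower, with log2 changes of -0.19 ± 0.05 at 45 min (adjusted p = 0.017, up to 0.28) and of -0.20 ± 0.04 at 90 min (adjusted p = 0.0027, up to 0.085). Irgm1, a riser in WT, had 2.74 and 2.47 CPM untreated, 2.38 and 2.39 CPM at 45 min and 1.47 and 1.72 CPM at 90 min in p65 KO (-0.70 ± 0.21 at 90 min, adjusted p = 0.026, up to 0.24). In IKK2 KO Ifit2 had 40.7 and 39.1 CPM untreated, 33.5 and 32.3 CPM at 45 min and 36.0 and 35.8 CPM at 90 min, and the 45 min change of -0.28 ± 0.06 (adjusted p = 0.00059) held in every alternative. Ifit2 thus fell in IKK2 KO at 45 min and in WT at 90 min.

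The difference between the responses was tested directly, as the response of the knock-out line minus that of WT, and both differences at a time share the WT libraries. At 45 min 4 members had a lower response in p65 KO, or 11.1%, beside 7.08% of all genes called (3.47% higher and 3.61% lower). In IKK2 KO 2 had a lower one, or 5.56%, beside 4.86% of all genes (2.05% higher and 2.82% lower). At 90 min 9 had a lower and 1 a higher response in p65 KO, or 27.8%, beside 5.39% of all genes (1.92% higher and 3.47% lower). In IKK2 KO 8 had a lower one, or 22.2%, beside 2.35% of all genes (0.833% higher and 1.52% lower). The median difference at 90 min was -0.40 in p65 KO and -0.42 in IKK2 KO, against 0.00 over all genes each time. These medians include 9 members in p65 KO and 6 in IKK2 KO with 3 counts or fewer in some group. Without them the medians were -0.44 and -0.54. As the members were chosen with earlier results of these data known, these shares too describe the set and do not test it.

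At 90 min Trim21 had 1.23 and 0.861 CPM in p65 KO cells and 0.264 and 0.315 CPM in IKK2 KO, against 3.72 and 3.61 CPM in WT. Its untreated levels were 0.872 and 1 CPM in p65 KO cells and 0.805 and 0.684 CPM in IKK2 KO, against 1.44 and 1.12 CPM in WT. The response was lower than in WT by 1.34 ± 0.35 on the log2 scale in p65 KO (difference -1.34, adjusted p = 0.014, lost in some alternatives). In IKK2 KO the difference from WT was -2.84 ± 0.54 (adjusted p = 0.00023). Whether these 2 responses differ from each other was not tested, and in IKK2 KO Trim21 had 25 counts untreated and 11 at 90 min. In IKK2 KO its own change was -1.34 ± 0.49, which did not pass (adjusted p = 0.10).

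Ddx58 had 7.53 and 6.81 CPM at 90 min in p65 KO and 6.44 and 6.72 CPM in IKK2 KO, against 13.7 and 13.6 CPM in WT. Neither knock-out line had been called against WT before TNF. The differences of -1.05 ± 0.15 (adjusted p = 3.1e-06) and -0.90 ± 0.17 (adjusted p = 0.00063) held in every alternative. So did those of Irgm1 (-1.41 ± 0.22 in p65 KO and -0.79 ± 0.15 in IKK2 KO), Samd9l (-0.44 ± 0.09 and -0.69 ± 0.11) and Ifitm3 (-0.35 ± 0.06 and -0.38 ± 0.06). Gbp2 had 0.696 and 0.704 CPM at 90 min in p65 KO and 1.79 and 2.00 CPM in IKK2 KO, against 2.04 and 1.53 CPM in WT. Its 6 IKK2 KO libraries lay between 1.79 and 2.58 CPM, above all untreated WT libraries, and the differences of response were -1.62 ± 0.49 in p65 KO (adjusted p = 0.037, up to 0.45) and -1.56 ± 0.42 in IKK2 KO (adjusted p = 0.024, up to 0.24).

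In p65 KO alone the difference at 90 min also passed for Parp9 (-0.82 ± 0.19), Stat2 (-0.67 ± 0.19), Ifitm2 (-0.30 ± 0.07) and, in the other direction, Ifit2 (0.37 ± 0.10), with adjusted p up to 0.096, 0.22, 0.082 and 0.096 in the alternatives. In IKK2 KO alone it passed for Xaf1 (-1.13 ± 0.32) and Bst2 (-1.62 ± 0.47), with adjusted p up to 0.42 and 0.31. Whether the 2 knock-out lines differ from each other in these responses was not tested. Parp14, a riser in WT, had differences that did not pass in p65 KO (-0.76 ± 0.40, adjusted p = 0.37) or IKK2 KO (-1.38 ± 0.41, adjusted p = 0.076). In p65 KO it had 0.819 and 0.822 CPM at 90 min, against 0.540 and 0.411 CPM untreated, without overlap but not called (0.77 ± 0.38, adjusted p = 0.23). The count of 8 in IKK2 KO was 5 without any 1 of 5 libraries (IKK2 KO TNF 90 min a, IKK2 KO untreated a or b, WT TNF 90 min a, WT untreated a). Every difference called at 45 min was lost in at least 1 alternative. At 45 min the 4 in p65 KO were Stat2 (-0.76 ± 0.19, DESeq2 adjusted p = 0.095), Ddx58 (-0.50 ± 0.16, 0.24), Ifitm2 (-0.25 ± 0.07, 0.18) and Ifitm3 (-0.24 ± 0.06, 0.032). That count was 1 or 2 without any 1 of WT TNF 45 min a or b, WT untreated a or b, and p65 KO TNF 45 min a or b. The 2 in IKK2 KO at 45 min were Ifit2 (-0.32 ± 0.08) and Ifitm3 (-0.21 ± 0.06), with 1 left without any 1 of IKK2 KO TNF 45 min b, IKK2 KO untreated a or b, WT TNF 45 min a and WT untreated b.

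The upstream genes of the pathway were read from separate lists, also chosen with earlier results of these data known. Of 17 interferon and receptor genes 5 were tested, all of them receptor genes. Ifnb1, encoding interferon beta, had 1 count in all 18 libraries, in a WT library at 90 min, and Ifng and 4 of the 5 Ifna genes listed had 0. Ifngr1 (0.57 ± 0.06), Ifngr2 (0.54 ± 0.04) and Ifnar1 (0.26 ± 0.05) rose in WT at 90 min, when 5.81% of all genes were called higher. At that time none of the 5 was called in p65 KO, beside 6.48% of all genes, and Ifngr2 rose in IKK2 KO (0.72 ± 0.08), beside 3.36% of all genes higher. Of the 17 JAK-STAT and IRF genes 16 were tested, of which 7 rose and 0 fell in WT at 45 min, beside 5.73% of all genes higher and 6.45% lower. At 90 min 8 rose and 1 fell, beside 5.81% and 3.51% of all genes.

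Irf1, a transcription factor that binds ISRE-like sites and is itself a known NF-κB target, moved farthest. In WT it had 5.99 and 4.51 CPM untreated, 117 and 117 CPM at 45 min and 15.6 and 16.2 CPM at 90 min. In IKK2 KO it had 15.8 and 15.5 CPM untreated, 41.2 and 41.4 CPM at 45 min and 21.1 and 21.7 CPM at 90 min, and in p65 KO 14.2 and 14.5 CPM, 13.4 and 12.9 CPM, and 13.8 and 12.8 CPM at the same times. Both knock-out lines were thus above WT before TNF (1.43 ± 0.11 in p65 KO and 1.55 ± 0.11 in IKK2 KO), and in p65 KO no TNF comparison passed. Irf5 rose in WT at 90 min (1.51 ± 0.14), with 11.7 and 13.0 CPM in untreated p65 KO cells, 0.309 and 0.399 CPM in untreated IKK2 KO and 4.31 and 3.75 CPM in untreated WT. Irf9, encoding a DNA-binding subunit of an ISRE-binding complex with STAT2, was lower than in WT in untreated p65 KO (-0.79 ± 0.15) and in untreated IKK2 KO (-1 ± 0.18). The list of sensors and adaptors upstream of interferon also held Trex1, Samhd1, Rnaseh2a and Rnaseh2b, which are neither. Of its 15 tested genes 6 rose at 45 min and 2 at 90 min in WT, beside 5.73% and 5.81% of all genes. Tank led the risers (1.17 ± 0.04 and 0.90 ± 0.04).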

How the data were processed

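Total RNA from MEFs was made into 18 libraries with a directional kit and sequenced in pairs, per the labels' protocols. The submitters' processing notes name FastQC 0.11.8, Trimmomatic, HISAT2, featureCounts in Subread 1.6.2, edgeR 3.26.4 and the build GRCm38; the strand setting is not given in the sources used here. The authors deposited 1 table of estimated counts per gene, in which 31.8% of non-zero values are not whole. Values were rounded, filtered with filterByExpr (16322 genes), scaled by TMM and tested in R 4.3.3 with edgeR 4.0.16 (robust quasi-likelihood F-test, all 18 libraries, group as the only term, 9 residual degrees of freedom), with Benjamini-Hochberg adjustment over all genes of a comparison and a threshold of 0.05. Gene positions and exon lengths came from GENCODE M21, matched by identifier for 55450 of 55536 genes.

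Columns name a group but no replicate number, so libraries are called a and b. No pair of libraries held identical values. Alternatives were DESeq2 1.42.0 (Wald test), relative log expression factors, other filters on low counts, rounding down, fitting only the libraries compared, and leaving out each library. Members and lists were chosen with earlier results of these data known. Members were given in every library if they passed the threshold, averaged 1 CPM or more in whichever group was higher, and showed no overlap between groups, up to 6 a direction, and others were added for their family or for their role as a common interferon readout. A fold against a group with 0 counts is a bound at 3 counts over the group. Intervals cover counting error only.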

Additional observations from a re-analysis of the deposited data

Results flagged for a closer look

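Each result here was listed because the response to TNF of a knock-out line, tested directly, differed from that of WT at an adjusted p under 0.05 (edgeR's quasi-likelihood test). The results are not equally firm: every call at 45 min, and part of those at 90 min, was lost in at least 1 alternative. Values are differences of log2 changes, knock-out minus WT, and their causes were not tested. In p65 KO at 45 min they were -0.76 for Stat2, -0.50 for Ddx58, -0.25 for Ifitm2 and -0.24 for Ifitm3. In p65 KO at 90 min they were -1.62 for Gbp2, -1.41 for Irgm1, -1.34 for Trim21, -1.05 for Ddx58, -0.82 for Parp9, -0.67 for Stat2, -0.44 for Samd9l, -0.35 for Ifitm3, -0.30 for Ifitm2 and 0.37 for Ifit2. In IKK2 KO at 45 min they were -0.32 for Ifit2 and -0.21 for Ifitm3. In IKK2 KO at 90 min they were -2.84 for Trim21, -1.62 for Bst2, -1.56 for Gbp2, -1.13 for Xaf1, -0.90 for Ddx58, -0.79 for Irgm1, -0.69 for Samd9l and -0.38 for Ifitm3.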

How the results depend on the processing

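No paired analysis was possible because the columns carry no replicate number. Of 135 calls of a member over the 14 comparisons, 93 held in every alternative and 42 were lost in at least 1, of which 41 were lost without some library and 30 with DESeq2. No value reversed. With DESeq2, whose own filter leaves fewer members with an adjusted p, the count of members called was 3 in WT at 45 min, 9 in WT at 90 min, 7 between those times, 0 in p65 KO at 45 min and 1 in p65 KO at 90 min. For the differences of response it was 1 and 5 in p65 KO at 45 and 90 min, and 0 and 5 in IKK2 KO. Fitting only the libraries compared gave 1 call in IKK2 KO at 90 min and 1 for the IKK2 KO difference at 45 min. Leaving out each library gave 3 to 5 calls in WT at 45 min, 11 to 13 in WT at 90 min and 7 to 10 between those times. It gave 0 to 0 in p65 KO at 45 min, 0 to 1 in p65 KO at 90 min, 1 to 1 in IKK2 KO at 45 min and 0 to 0 at 90 min. For the differences it gave 1 to 3 and 7 to 9 in p65 KO at 45 and 90 min, and 1 to 2 and 5 to 8 in IKK2 KO. At baseline it gave 24 to 29 for p65 KO against WT, 25 to 27 for IKK2 KO against WT and 20 to 23 between the knock-out lines. For members under 1 CPM the low counts limit how small a change could be called.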

Other observations

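A further list of 56 interferon-induced genes outside the set, of which 38 were tested, also held genes of either direction in each knock-out line. This list too was chosen with earlier results of these data known. In untreated p65 KO cells 12 were higher and 20 lower than in WT (edgeR's quasi-likelihood test), beside 39.8% of all genes higher and 41.1% lower. In untreated IKK2 KO cells 18 were higher and 14 lower, beside 35.9% and 38.4% of all genes. Helz2, encoding a helicase that coactivates transcription, had 18.2 and 18.3 CPM in p65 KO cells, 0 and 0.171 CPM in IKK2 KO and 19.1 and 19.4 CPM in WT, with 3 counts in untreated IKK2 KO against 849 in WT (ratio 0.00462, 95% counting interval 0.000951 to 0.0136). Ifi203, a member of the DNA-binding HIN-200 family, was low in the other line, with 0.332 and 0.137 CPM in p65 KO cells, 16 and 16.1 CPM in IKK2 KO and 14.4 and 15.4 CPM in WT. Parp12 was low in both, with 1.62 and 1.28 CPM in p65 KO cells, 0 and 0.114 CPM in IKK2 KO and 11.8 and 10.0 CPM in WT. The nuclear body gene Sp100 had 0.0415 and 0.0457 CPM in p65 KO cells, 1.30 and 1.25 CPM in IKK2 KO and 6.73 and 7.15 CPM in WT.

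After TNF 9 of the 38 rose in WT at 45 min and 12 at 90 min, beside 5.73% and 5.81% of all genes, and 0 fell, beside 6.45% and 3.51%. Rnf213, encoding a very large ubiquitin ligase, had 169 and 175 CPM untreated, 195 and 202 CPM at 45 min and 265 and 270 CPM at 90 min in WT (0.64 ± 0.03 at 90 min, adjusted p = 5.8e-22). Its 90 min response was smaller in p65 KO (-0.59 ± 0.04 against WT) and in IKK2 KO (-0.48 ± 0.04). The chemokine gene Cxcl10 rose in all 3 lines at 90 min, by 1.43 ± 0.18 in p65 KO, 1.69 ± 0.11 in IKK2 KO and 5.49 ± 0.59 in WT. Its untreated level was 1.54 and 2.15 CPM in p65 KO cells, 6.93 and 6.33 CPM in IKK2 KO and 0.205 and 0.0507 CPM in WT. At 90 min it had 4.63 and 5.20 CPM in p65 KO cells, 22.2 and 20.4 CPM in IKK2 KO and 6.59 and 6.19 CPM in WT.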
